A study of Mus musculus with 6 samples.

Results

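The genes described here encode the nuclear subunits of the mitochondrial respiratory chain and of ATP synthase, in skeletal muscle of transgenic and wild-type mice. They were chosen by gene symbol: names starting with Nduf, Uqcr, Atp5, Cox4, Cox5, Cox6, Cox7 or Cox8, together with Sdha to Sdhd, Cyc1 and Cycs. Of the 19938 genes tested, 91 were members. Complex I had 36, complex II 4, complex III 9, complex IV 17 and complex V, the ATP synthase, 17. The remaining members were 7 complex I assembly factors (Ndufaf symbols) and Cycs, which encodes cytochrome c. Muscle RNA of 6 mice was hybridised to MoGene arrays (Affymetrix). The labels call 3 of the mice transgenic (TG) and the other 3 wild type (WT), and the title of the series names SOCS-3, a suppressor of cytokine signalling. Each array belongs to a separate subject, and all 6 samples share the tissue and the RNA preparation. The labels name neither the muscle, nor what the transgene carries or which promoter drives it, nor strain, age, sex or treatment. All p-values rest on 3 arrays per group, and that number limits their precision.

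The respiratory chain sits in the inner mitochondrial membrane. Complex I takes electrons from NADH and complex II from succinate, both pass them to ubiquinone, complex III hands them on to cytochrome c, and complex IV gives them to oxygen. Complexes I, III and IV pump protons across the membrane, and ATP synthase uses the returning protons to make ATP. Oxidative muscle fibres and brown fat hold many complexes of the respiratory chain. Several subunits of complex IV exist as a muscle and heart isoform and an isoform found in most tissues.

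The defining muscle genes were at the upper end of the scale on every array. Ckm, muscle creatine kinase, lay between 14.48 and 14.53 log2 units over the 6 arrays, and Acta1, skeletal actin, between 14.57 and 14.62. The array medians over the genes tested lay between 6.39 and 6.48, and no column was a copy of another. WT array 2 stood apart for the members. It was the lowest of the 6 arrays for 49 of 91 members (53.8%), against 19% of all genes tested. Set against the mean of the other WT arrays, it was below 0 for 79 members (86.8%), with a median of -0.053, whereas 56.2% of all genes were below 0, with a median of -0.022. The median of each complex is therefore also given without this array.

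No member passed the test between TG and WT. In limma's moderated test with Benjamini-Hochberg adjustment over all genes, 0 of 91 members had an adjusted p under 0.05, against 0.00502% of all genes (1 gene). The smallest adjusted p of a member was 0.682. Without adjustment, 3 members (3.3%) had a p under 0.05, against 6.75% of all genes. Of these, Cox6a1 and Ndufc2 were higher in TG (2.2%, against 1.96% of all genes) and Ndufa12 was lower (1.1%, against 4.79%). This count depended on how limma moderated the variances. With an intensity trend 7 of 91 members had such a p, 6 higher in TG and 1 lower, and the share of all genes in that fit is not given here. The values of the TG and WT arrays did not overlap for 18 members (19.8%), against 12.3% of all genes. Among these, 12 were higher in TG (13.2%, against 4.52% of all genes) and 6 were lower (6.59%, against 7.76%). This split depended on the arrays and the scaling. There were 22 higher and 2 lower with each array shifted to a common median, 10 higher and 8 lower after quantile normalization, and 13 higher and 16 lower if WT array 2 was left out. The shares of all genes under these settings are not given here, so the counts cannot be read as particular to the members. A common median shifts the difference of every gene by the same amount, and leaving out an array makes overlap rarer for all genes.

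The differences, taken throughout as TG minus WT on the log2 scale, were small. Over the 91 members the median was 0.021 with 60 above 0 and 31 below, while over all genes the median was -0.016 with 8728 above 0 and 11210 below. Without WT array 2 the members' median was 0.002, with 48 above 0 and 43 below. With each array shifted to the same median, the members' median was 0.061 with 77 above 0, and that of all genes was 0.024, a step that shifts both by the same amount. After quantile normalization the medians were 0.009 for members, with 54 above 0, and -0.001 for all genes. Among genes above the median level, where 88 of the members lie, the members' median was 0.022 and that of all such genes 0.006, a gap of 0.016 where that to all genes was 0.037. An absolute difference under 0.1 was found for 74 members (81.3%), against 62.5% of all genes. The 95% interval of the difference lay within a 1.2-fold change in either direction for 75 members and reached past it for 16, with a median half-width of 0.16. The median standard deviation between arrays of a group was 0.052 for members and 0.112 for all genes, and 88 members had a mean above 6.42, the median level of all genes. The SEs and intervals given here are limma's moderated ones, which draw the spread of each gene towards that of all genes. For the members they can therefore be wider than the gene's own spread.

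**Figure D1:**
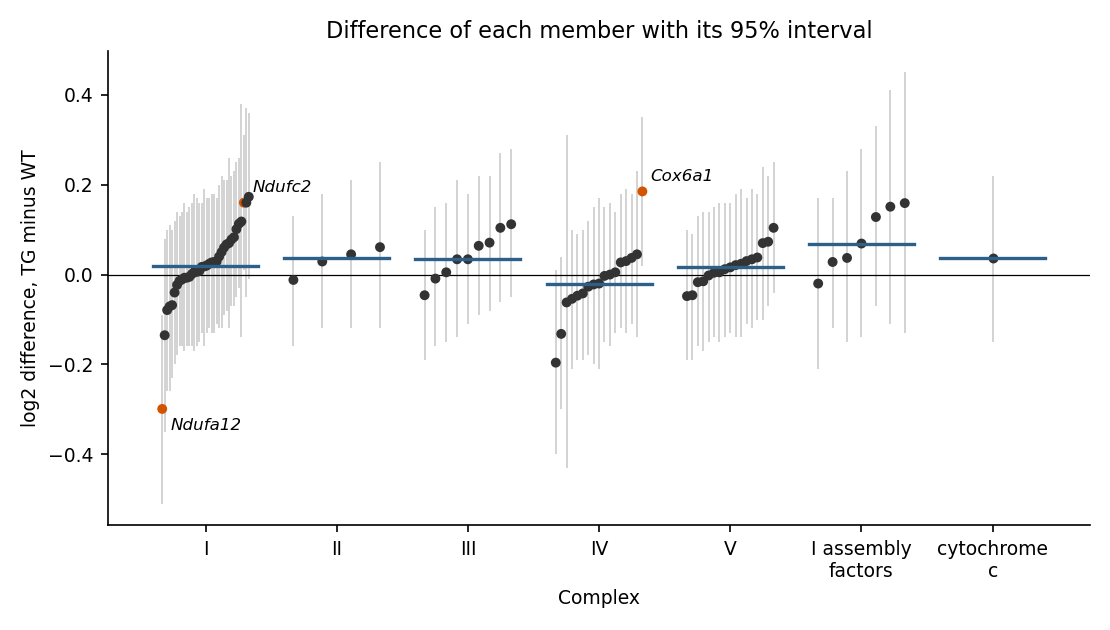
Log2 difference (TG minus WT, vertical axis) of each of the 91 members, ordered within its complex, with the 95% interval from limma as a grey bar and the median of the complex as a blue line. The 3 orange points, Ndufa12, Ndufc2 and Cox6a1, have an unadjusted p under 0.05, and the medians of complexes I to V lie between -0.020 and 0.037.

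Complex I, the entry point for electrons from NADH, had a median difference of 0.019 over 36 genes with Nduf names, assembly factors apart, with 24 above 0 and 12 below. Without WT array 2 the median was 0.001. With Ndufa4 and Ndufa4l2 counted in complex IV, the median of complex I was 0.019, with 23 above 0 and 11 below. That of complex IV was then -0.020, with 8 above 0 and 11 below. Ndufa12, an accessory subunit of the matrix arm, had the member difference farthest from 0. Its log2 values were 10.88, 10.65 and 10.72 on the TG arrays and 10.92, 11.09 and 11.14 on the WT arrays. Every TG array was below every WT array, with TG array 1 only just under WT array 1. The difference was -0.30 (SE 0.09, 95% interval -0.51 to -0.09; limma, unadjusted p = 0.012, adjusted p = 0.682), which is 1.23-fold lower in TG. Over the 14 alternative analyses it lay between -0.36 and -0.25, with adjusted p between 0.481 and 0.937. Ndufc2, a membrane-arm accessory subunit, stood at 12.29, 12.38 and 12.31 in TG and 12.22, 12.13 and 12.14 in WT. All TG values were above all WT values, and the difference was 0.16 (SE 0.07; limma, unadjusted p = 0.042, adjusted p = 0.738). Ndufb3, another membrane-arm subunit, stood at 8.80, 8.78 and 8.78 in TG and 8.65, 8.47 and 8.72 in WT. The TG arrays were nearly equal and WT array 2 was the lowest, which gave a difference of 0.17 (SE 0.08; limma, adjusted p = 0.745). Without WT array 2 it was 0.10.

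The other complex I subunits whose groups did not overlap had smaller or less even differences. Ndufs4, an accessory subunit needed for full assembly, differed by 0.11, Ndufb6 by 0.10 and Ndufv3 by -0.14, the last with WT array 3 at 8.89 and the other 5 arrays between 8.55 and 8.62. Without WT array 3 the difference of Ndufv3 was -0.04. Ndufa1 differed by 0.16, with TG array 1 at 10.88 and the other 5 arrays between 10.52 and 10.61, and by 0.07 without TG array 1. Of the 6 measured core subunits, most of which carry the flavin and the iron-sulphur clusters, 5 were above 0 and 1 was below, with a median of 0.044. Ndufv1, which binds NADH, differed by 0.08, and Ndufs3 by 0.08, both without overlap. Ndufs1 differed by 0.06, Ndufs8 by 0.03, Ndufs7 by 0.00 and Ndufv2 by -0.01, all with overlapping groups. The 30 other genes counted in complex I, Ndufa4 and Ndufa4l2 among them, had a median of 0.018, with 19 above 0 and 11 below.

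The Ndufaf assembly factors, chaperones that help to build complex I and are not part of the finished enzyme, had a median of 0.069 with 6 of 7 above 0. Ndufaf6 differed by 0.16 (SE 0.13), Ndufaf5 by 0.15 (SE 0.11) and Ndufaf1 by 0.13 (SE 0.09), and the groups overlapped for each. Ndufaf6 ranged from 8.29 to 8.66 over the TG arrays and from 8.14 to 8.51 over the WT arrays, so its spread within a group exceeded the difference. In 4 of the 7 factors TG array 1 was the highest array (57.1%, against 13.5% of all genes), and in 4 WT array 2 was the lowest (57.1%, against 19%).

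**Figure D2:**
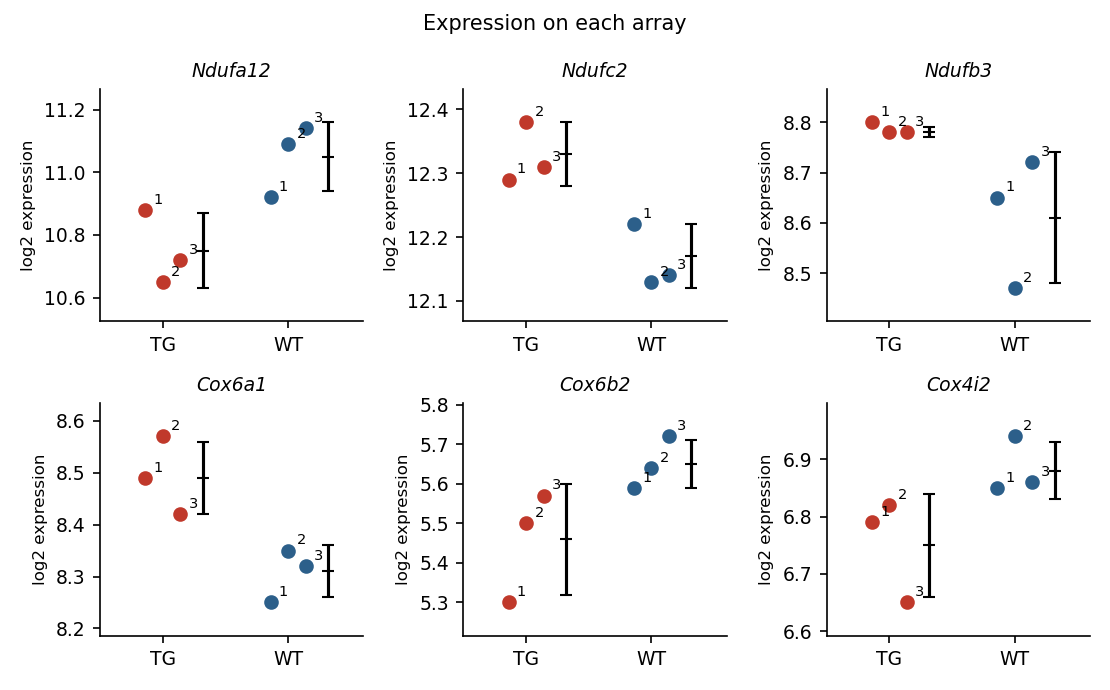
Log2 expression of 6 members on each TG (red) and WT (blue) array, with the replicate number beside each point and the mean with its SD (n = 3) in black. In each panel the TG and WT points do not overlap, and the vertical scale differs between panels.

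Complex II, which is also the succinate dehydrogenase of the tricarboxylic acid cycle, had no subunit with a difference past 0.06. Sdha, the flavoprotein that oxidises succinate, stood at 13.19, 13.22 and 13.23 in TG and 13.23, 13.12 and 13.21 in WT, a difference of 0.03 (SE 0.06). Sdhb, the iron-sulphur subunit, differed by -0.01 (SE 0.06). The membrane anchors Sdhc and Sdhd differed by 0.05 (SE 0.07) and 0.06 (SE 0.08). WT array 2 was the lowest array for 3 of the 4 genes, and the median of 0.037 was 0.000 without it.

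Complex III, which passes electrons from ubiquinol to cytochrome c, had a median difference of 0.034 with 7 of 9 subunits above 0. The Rieske iron-sulphur protein gene Uqcrfs1 stood at 11.20, 11.30 and 11.23 in TG and 11.18, 11.04 and 11.17 in WT. The groups did not overlap, by a narrow margin, and the difference was 0.11 (SE 0.07; limma, adjusted p = 0.797), or 0.07 without WT array 2. Cyc1, the cytochrome c1 gene, differed by 0.06 (SE 0.06) with overlapping groups. Uqcrc1 and Uqcrc2, the large core proteins, differed by 0.01 and 0.03. Among the small subunits, Uqcrb differed by 0.10 with overlap and Uqcr10 by 0.07 without overlap, while Uqcrh stood at -0.05 and Uqcrq at -0.01. WT array 2 was the lowest array for 6 of the 9 genes, and the median without it was 0.043. Cycs, the mobile carrier between complexes III and IV, stood at 12.77, 12.65 and 12.56 in TG and 12.68, 12.55 and 12.64 in WT, and its difference of 0.04 (SE 0.08) was smaller than the range within either group.

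Complex IV, cytochrome c oxidase, had a median below 0, at -0.020, with 7 subunits above 0 and 10 below. That sign was not stable: the median was 0.020 with a common array median, 0.007 if WT array 3 was left out and 0.004 if TG array 1 was. Without WT array 2 it was -0.045, and without the 4 isoforms of other tissues it was -0.003, with 6 above 0 and 7 below. TG array 1 was the lowest array for 7 of the 17 genes (41.2%, against 22.2% of all genes). WT array 3 was the highest for 8 (47.1%, against 25.3%). Over all genes, too, TG array 1 was most often the lowest and WT array 3 most often the highest. Cox6a1, the subunit VIa isoform of most tissues, stood at 8.49, 8.57 and 8.42 in TG and 8.25, 8.35 and 8.32 in WT. All TG values were above all WT values, and the difference was 0.18 (SE 0.07, 95% interval 0.02 to 0.35; limma, unadjusted p = 0.031, adjusted p = 0.738), a 1.14-fold higher level in TG. Over the alternatives it lay between 0.15 and 0.22, with adjusted p between 0.597 and 0.937. Its muscle counterpart Cox6a2 stood at 12.78, 12.75 and 12.84 in TG and 12.80, 12.83 and 12.91 in WT, a difference of -0.05 (SE 0.07) with overlap.

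The isoform sets of complex IV were read together, since several of them pair a muscle form with a form of most tissues. All 3 muscle isoforms were below 0, with Cox6a2 and Cox8b at -0.05 and Cox7a1 at -0.02. Cox8b was between 13.32 and 13.36 in TG and between 13.38 and 13.39 in WT, a gap of hundredths of a log2 unit. Their ubiquitous counterparts Cox6a1, Cox7a2 and Cox8a stood at 0.18, 0.03 and -0.00. No test of the difference between these sets was made. The muscle isoforms' mean deviation from each gene's own mean was 0.078 on WT array 3, while on the other 5 arrays it lay between -0.029 and 0.009. Over all genes this deviation was 0.036 on WT array 3. Of the subunits without such a muscle form, Cox4i1 and Cox6c differed by 0.00 and 0.01, Cox5a by 0.04, Cox5b by -0.04, Cox6b1 by -0.03 and Cox7b by 0.03. Cox7a2l, which encodes a factor that joins complexes III and IV into supercomplexes, differed by -0.02.

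Isoforms known mainly from other tissues included the most negative complex IV values. Cox6b2, the testis form of subunit VIb, stood at 5.30, 5.50 and 5.57 in TG and 5.59, 5.64 and 5.72 in WT, a difference of -0.20 (SE 0.09; limma, adjusted p = 0.739) without overlap, and of -0.12 if TG array 1 was left out. Cox4i2, a lung form of subunit IV, stood at 6.79, 6.82 and 6.65 in TG and 6.85, 6.94 and 6.86 in WT, a difference of -0.13 (SE 0.07; limma, adjusted p = 0.791), again without overlap, and of -0.08 if TG array 3 was left out. Cox7b2 and Cox8c, also testis forms, differed by 0.05 and -0.06 with overlap. Cox6b2, Cox7b2 and Cox8c were the 3 members whose means lay below the median level of all genes, and whether their signal exceeded the background of the arrays was not assessed. In the same way Ndufa4l2, a paralog of Ndufa4 induced by low oxygen, differed by -0.08 (SE 0.08), and Ndufa4, a subunit now assigned to complex IV, by 0.02.

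Complex V, the ATP synthase, had every subunit between -0.05 and 0.10 and a median of 0.016, with 12 above 0 and 5 below. Without TG array 3 the median was -0.001, and without WT array 2 it was 0.007. In the F1 head, where ATP is made, the catalytic beta subunit gene Atp5b stood at 13.96, 13.97 and 13.93 in TG and 13.95, 13.89 and 13.94 in WT, a difference of 0.03 (SE 0.06). Atp5a1, the alpha subunit, differed by 0.00, Atp5c1 by -0.00, Atp5d by -0.02 and Atp5e by -0.05. The 3 genes for the proton-carrying c ring, Atp5g1, Atp5g2 and Atp5g3, differed by 0.04, 0.02 and 0.02, and their groups overlapped. In the peripheral stalk, Atp5pb differed by 0.07 with overlap. The small membrane subunits Atp5md and Atp5l had no overlap between groups, at 0.10 (SE 0.06; limma, adjusted p = 0.791) and 0.07 (SE 0.06; limma, adjusted p = 0.838), and neither did Atp5j2 at -0.05. Atp5md stood at 12.89, 12.84 and 12.85 in TG and 12.74, 12.75 and 12.78 in WT.

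Several genes were measured by more than 1 probe set, and these did not always give the same sign. Of the 18 such members, 15 had the same sign in every probe set. The 6 probe sets of Atp5l differed by 0.04 to 0.12, the 3 of Atp5md by 0.09 to 0.14 and the 3 of Uqcrb by 0.10 to 0.12. For Cycs the probe set used gave 0.04 and the others 0.08 and 0.15, the last at a lower level (7.95 in TG, 7.80 in WT). For Uqcr11 the probe set used gave 0.03 and the other 0.12. The signs differed for Cox6c (0.01 and -0.05), Cox7a2l (-0.02 and 0.08) and Cox7b (0.03 and -0.01). Many of these genes have near-identical processed copies in the genome, to which a probe set can also respond, and which copy each probe set measured was not determined here. Probe sets that carried both a member symbol and another symbol were left out, and for that reason Cox7c and Ndufb4 have no value.

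Read by array rather than by gene, the complexes differed in which arrays were low. The level of a complex on an array was taken as the mean deviation of its genes from their own means over the 6 arrays. On WT array 2 this was -0.055 for complex I, -0.083 for complex II, -0.056 for complex III, -0.014 for complex IV and -0.035 for complex V. On the other WT arrays complexes I, II and V lay between 0.000 and 0.026, a range that also held the TG arrays. For complex III, the TG arrays stood at 0.028, 0.024 and 0.009 and the WT arrays at 0.003, -0.056 and -0.009, so the groups did not overlap. For complex IV, TG array 1 was the lowest at -0.046 and WT array 3 the highest at 0.042. Over all genes the same arrays were the lowest and the highest, at -0.027 and 0.036.

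**Figure D3:**
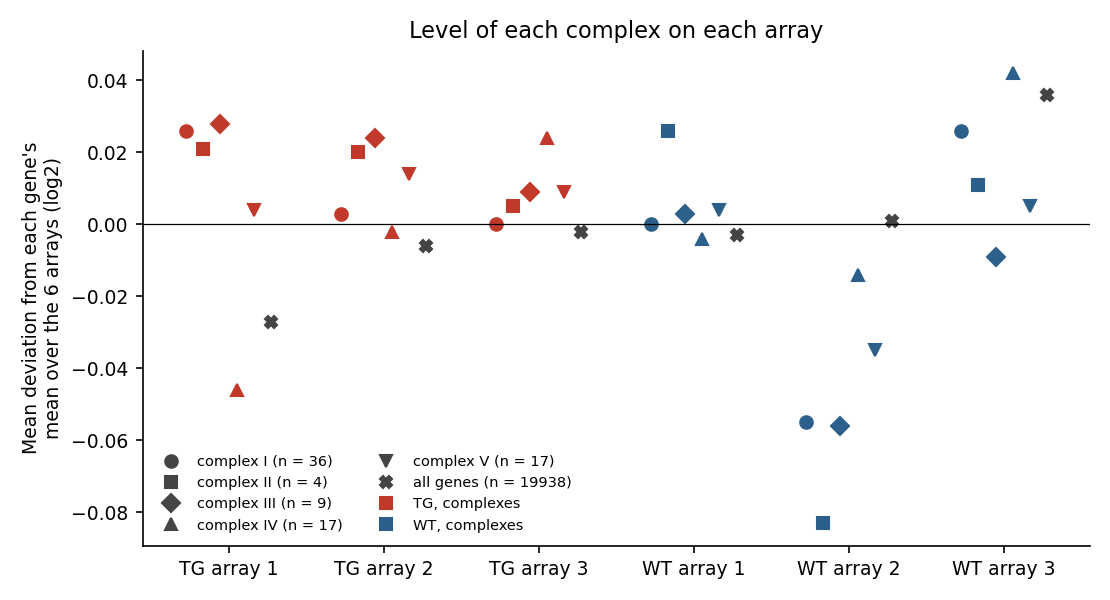
Mean deviation (log2, vertical axis) of the genes of each complex from their own means over the 6 arrays, with 1 symbol per complex and array, red for TG, blue for WT and dark crosses for all 19938 genes. WT array 2 is the lowest array for complexes I, II, III and V, at -0.035 to -0.083. TG array 1 is the lowest for complex IV, at -0.046, and also for all genes, at -0.027.

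**Figure D4:**
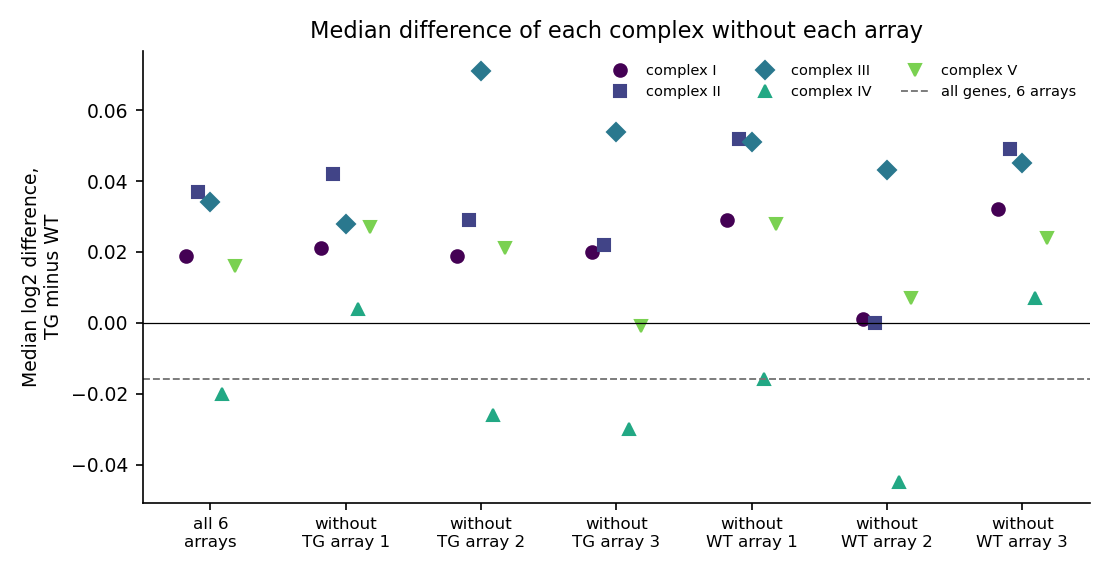
Median log2 difference (TG minus WT, vertical axis) over the subunits of each complex with all 6 arrays and with each array left out, and the median over all genes with all arrays as a dashed line at -0.016. The medians of complexes I and II are 0.001 and 0.000 without WT array 2, and that of complex III stays between 0.028 and 0.071.

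The genes around the complexes were read from lists of the same pathway, and in each list 0 genes passed the adjusted threshold. Of the 13 subunits encoded by mitochondrial DNA, the array named 2, ND3 of complex I at 0.06 (SE 0.08) and COX2 of complex IV at 0.05 (SE 0.07), both with overlapping groups. Assembly factors outside the Nduf names had 27 of 38 measured genes above 0 and a median of 0.039. In that list 1 gene of 38 had an unadjusted p under 0.05 in limma, against 6.75% of all genes. That gene was Lyrm7, which helps insert the Rieske protein into complex III, at 0.23 (SE 0.09; limma, adjusted p = 0.730). Lyrm7 lay between 5.45 and 5.88, below the median level of all genes, and its signal over background was not assessed. Foxred1, a complex I assembly factor, differed by 0.15 (SE 0.07). Ubiquinone synthesis and electron entry had 14 of 17 above 0 and a median of 0.042, with Coq10b at -0.20 and Coq7, a hydroxylase of ubiquinone synthesis, at 0.12, both with overlap. Both lists were also lowest on WT array 2, at -0.085 and -0.078.

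Regulators of mitochondrial biogenesis had 13 of 23 measured genes above 0 and a median of 0.013. Tfam, the factor that packages and transcribes mitochondrial DNA, stood at 8.91, 8.88 and 8.88 in TG and 8.86, 8.65 and 8.64 in WT, a difference of 0.17 (SE 0.08; limma, adjusted p = 0.745) without overlap. Ppargc1a, the coactivator PGC-1 alpha, stood at 9.50, 10.41 and 9.50 in TG and 9.15, 9.34 and 9.55 in WT. Its difference of 0.46 (SE 0.24; limma, adjusted p = 0.777) had overlapping groups and came with 1 high value, on TG array 2. The nuclear receptors Esrra and Esrrg, which bind genes of the respiratory chain, differed by -0.03 and -0.04.

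Markers of fibre and cell types were compared on the same arrays, since the complexes are unevenly spread among them. In whole muscle, fewer cells of a type and less RNA per cell cannot be told apart. Skeletal muscle markers had 2 of 12 above 0 and a median of -0.011, with levels of 13.37 to 13.40 in TG and 13.40 to 13.42 in WT. The largest difference there was of Mylk2, at -0.22 (SE 0.08; limma, adjusted p = 0.719) without overlap. Slow-fibre markers had 3 of 11 above 0 and a median of -0.075, with a mean level of 7.74 to 7.90 in TG and 7.80 to 7.98 in WT. Within that list Myoz2 differed by -0.52 (SE 0.19; limma, adjusted p = 0.725) without overlap. Its WT array 3 stood at 10.23, with WT arrays 1 and 2 at 9.52 and 9.48. Pln differed by 0.21 and Myh7, slow myosin, by -0.03, both with overlap. Fast-fibre markers had 2 of 12 above 0 and a median of -0.022, with levels of 13.77 to 13.82 in TG and 13.81 to 13.85 in WT. The largest difference in that list was of Myh2, at -0.30 (SE 0.14; limma, adjusted p = 0.755) without overlap and with WT array 3 at 12.52. Myh1 differed by 0.06, also without overlap. White adipocyte markers had 8 of 8 above 0 and a median of 0.161, with levels of 7.78 to 7.91 in TG and 7.57 to 7.69 in WT, lowest on WT array 2. Brown adipocyte markers had 1 of 6 above 0, with levels of 5.28 to 5.31 in TG and 5.27 to 5.55 in WT, highest on WT array 3. Among them Ucp1, the uncoupling protein that defines brown fat, lay between 4.58 and 4.90, below the median level of all genes. Macrophage markers had 10 of 10 above 0 and levels of 6.59 to 6.89 in TG and 6.41 to 6.67 in WT. Hepatocyte markers had 0 of 9 above 0 and spread widely, with levels of 5.70 to 7.87 in TG and 6.93 to 7.58 in WT. Bone and osteoclast markers had 8 of 10 above 0 and a median of 0.202, with levels of 5.83 to 6.51 in TG and 5.68 to 5.95 in WT, highest on TG array 1 and lowest on WT array 2. Among them Acp5 and Ctsk, enzymes of osteoclasts, differed by 0.69 and 0.57 without overlap (limma, adjusted p = 0.699 and 0.687). Fibroblast markers had 5 of 6 above 0 and a median of 0.112, with levels of 9.63 to 9.92 in TG and 9.64 to 9.72 in WT. Cardiac markers had 2 of 8 above 0 and a median of -0.084, with levels of 5.83 to 5.93 in TG and 5.91 to 6.01 in WT. Endothelial and Schwann cell markers had medians of -0.047 (1 of 6 above 0) and -0.126 (0 of 3 above 0). The part of these markers in the members' differences was not tested.

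Ndufa12 lies on chromosome 10, in a stretch that also holds genes with larger differences. Places are counted in the gene order of the mouse assembly GRCm38.p6. Socs2, a suppressor of cytokine signalling, is the tested gene 6 places after Ndufa12. It differed by -1.15 (limma, unadjusted p = 1.1e-04). Slc25a3, which carries the phosphate used by ATP synthase, lies 19 places before Ndufa12 and differed by -0.56 (limma, unadjusted p = 4.0e-05). Apaf1, a caspase activator of the apoptosome, lies 21 places before Ndufa12 and differed by 1.01 (limma, unadjusted p = 5.5e-05). None of these genes passed the adjusted threshold, which 1 of all 19938 genes did. Of the 20 tested genes within 10 places on either side, 14 were below 0, 4 had an unadjusted p under 0.05 (20%, against 6.75% of all genes) and 5 had no overlap between groups (25%, against 12.3%). The counts varied with the width. Within 5 places 8 of 10 were below 0 and 1 had such a p (10%). Within 20 places these were 22 of 40 and 8 (20%), and within 30 places 28 of 60 and 15 (25%). For comparison, 11210 of all 19938 genes tested were below 0. Over all 938 tested genes of chromosome 10, 84 had an unadjusted p under 0.05 (8.96%). The other 5 members on chromosome 10 lie at least 160 places away. They are Atp5d, Ndufs7, Uqcr11, Ndufa4l2 and Atp5b, with differences between -0.08 and 0.03 and overlapping groups. The part of this neighbourhood in the value of Ndufa12 was not tested.

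**Figure D5:**
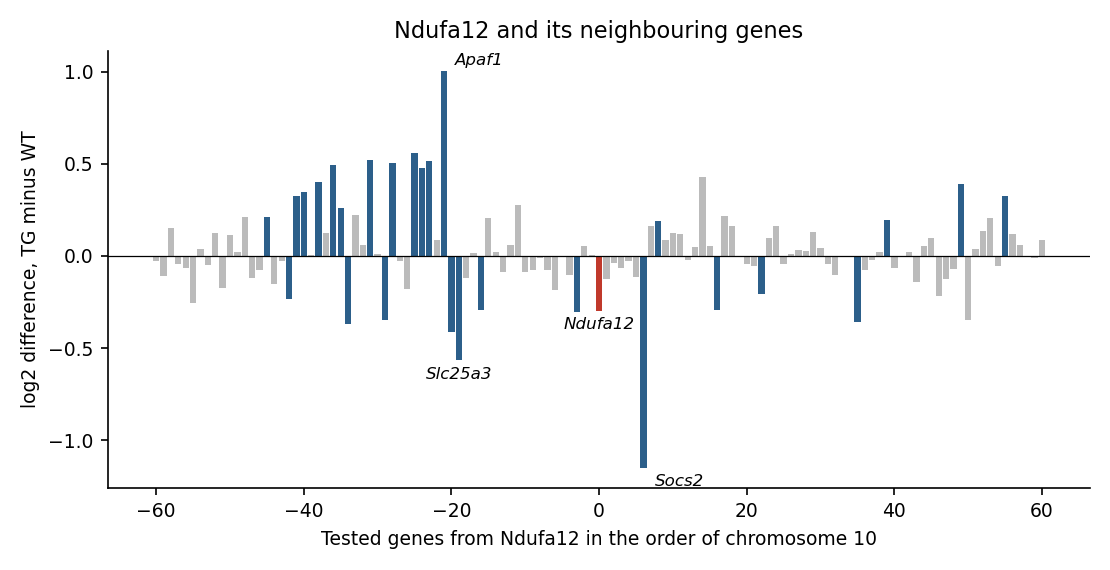
Log2 difference (TG minus WT, vertical axis) of tested genes in the order of chromosome 10, counted from Ndufa12 (red), with genes at an unadjusted p under 0.05 in blue and the others in grey. Values lie on both sides of 0, from -1.15 for Socs2 to 1.01 for Apaf1, and Ndufa12 stands at -0.30.

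The promoters were examined because genes of the respiratory chain are scattered over the chromosomes and are known to share binding motifs of a few factors. RefSeq promoter windows of assembly GRCm38.p6, from 250 bases before to 50 after the start, were found for 74 of the 91 members. The 250 bases before the start are shown for the 3 members with the smallest p, Ndufa12 (chr10:94198785-94199034, plus strand), Ndufc2 (chr7:97399753-97400002, plus strand) and Cox6a1 (chr5:115348959-115349208, minus strand). Sdha (chr13:74350241-74350490, minus strand) is shown beside them as the member with 3 matches to the motif of NRF-1, nuclear respiratory factor 1. Sequences are written 5′ to 3′ on the strand of the gene, and capitals mark motif matches.
Ndufa12: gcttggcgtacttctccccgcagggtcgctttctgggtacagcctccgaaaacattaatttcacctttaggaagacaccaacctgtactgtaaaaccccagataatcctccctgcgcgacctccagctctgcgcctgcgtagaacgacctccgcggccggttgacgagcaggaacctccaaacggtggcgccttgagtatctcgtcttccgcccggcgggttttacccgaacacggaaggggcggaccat
Ndufc2: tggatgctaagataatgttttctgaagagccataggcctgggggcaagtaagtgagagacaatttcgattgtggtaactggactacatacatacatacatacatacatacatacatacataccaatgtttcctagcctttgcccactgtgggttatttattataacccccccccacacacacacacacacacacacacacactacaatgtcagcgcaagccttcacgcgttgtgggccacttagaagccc
Cox6a1: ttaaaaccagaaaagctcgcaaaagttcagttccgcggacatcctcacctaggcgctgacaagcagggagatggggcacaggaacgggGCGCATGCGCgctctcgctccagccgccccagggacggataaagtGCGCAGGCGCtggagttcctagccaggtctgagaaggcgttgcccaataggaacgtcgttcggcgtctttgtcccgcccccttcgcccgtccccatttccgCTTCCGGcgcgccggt
Sdha: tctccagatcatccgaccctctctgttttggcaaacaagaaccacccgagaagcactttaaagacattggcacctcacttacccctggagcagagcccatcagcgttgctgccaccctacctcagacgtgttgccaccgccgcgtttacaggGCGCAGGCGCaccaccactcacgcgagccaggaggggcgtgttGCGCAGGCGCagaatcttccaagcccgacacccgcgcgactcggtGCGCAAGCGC
Cox6a1 had 2 matches to the NRF-1 motif and 1 to the GABPA motif, and the windows of Ndufa12 and Ndufc2 had none, which says only that these letters are not in these windows.

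The searched letters, on both strands, were GCGC, any 2 bases and GCGC again for NRF-1, CCGGAAG for GABPA (an ETS factor also called NRF-2), AAGATGGCG for YY1 and AAGGTCA for the oestrogen-related receptors. No window had overlapping matches of different motifs. The NRF-1 motif was found for 20 of 74 members (27%), against 10.5% of all 15563 genes with a window. The GABPA motif was found for 18 members (24.3%, against 13.6%), the YY1 motif for 7 (9.46%, against 2.29%) and the receptor motif for 7 (9.46%, against 4.48%). Any of the motifs was found for 40 members (54.1%, against 27.1%). The median GC content of the windows was 58.3% for members and 57.7% for all genes, and the median number of CpG sites was 20 and 15. Members with any motif had a median difference of 0.016 and those without had 0.029, and for the NRF-1 motif alone these were 0.018 and 0.027.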

How the data were processed

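RNA was prepared with Trizol and RNeasy columns and carried a biotin label, per the labels' protocols. The authors deposited log2 values, from 1.41 to 15.08, of 35557 probe sets on 6 arrays. The summarization and normalization behind these log2 values are not stated in the labels or the series' design text, and the values were taken unchanged. No column of per-sample values was left out (0). Raw intensities were not used here, so signal over background was not assessed.

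Gene symbols came from the platform annotation: 21789 probe sets had 1 symbol, 1621 several and 12147 none. A gene with several probe sets (999 of 19938 genes) was read from the one with the highest mean over all arrays. TG and WT were compared over all genes in limma (version 3.58.1, lmFit and eBayes, run in R version 4.3.3) with a two-sided test, Benjamini-Hochberg adjustment and a threshold of 0.05. Intervals are at 95%. The limma fit was tested on simulated data with changes larger than the difference of any member. That test does not bear on whether differences as small as theirs would be found. Medians, counts and levels are descriptions with no test.

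The members, lists, cell type markers and tests were chosen with earlier results of these data known. Named members are, per complex, the 3 of smallest unadjusted p, the 2 largest differences in each direction, complex II, Cyc1, Cycs, isoform sets, core and catalytic subunits, members with several probe sets (named where these disagreed or the gene was described) and members on chromosome 10. In each pathway list the 2 genes of smallest p were named. Other members without overlap between groups, and list genes such as Esrra, Esrrg, Myh7, Myh2, Myh1 and Mylk2, were named after their values were seen. Gene order came from RefSeq on GRCm38.p6, to which 19856 genes and all 91 members matched by gene identifier. The deposited table names no genome build, and positions are those of the RefSeq promoter windows. Identity between isoform proteins was planned and is not analysed here. The alternatives tried were robust moderation, array weights, an intensity trend, quantile normalization, a common array median over the genes tested, genes above the median level, probe sets averaged per gene, every probe set, each array left out, and other assignments of subunits to complexes. Figures were drawn with matplotlib 3.10.9.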

Additional observations from a re-analysis of the deposited data

How the results depend on the processing

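Under all 14 alternative fits, 0 members passed the adjusted threshold, and the smallest adjusted p of a member in limma was 0.481. The sign changed under at least 1 of them for 40 members, none with an absolute difference over 0.07, and held for 51. Over all genes, the count passing was 1 as reported, 0 with a common array median, with every probe set, with robust moderation and without any 1 array (0 to 0), 2 among genes above the median level and 7 with an intensity trend. With a common array median, the median difference was 0.061 for all members, 0.059 for complex I, 0.077 for complex II, 0.074 for complex III, 0.020 for complex IV and 0.055 for complex V, and the share of members above 0 went from 65.9% to 84.6%. Quantile normalization gave 0.009 for all members, with 59.3% above 0, and 0.008, 0.025, 0.016, -0.021 and 0.007 for complexes I to V in that order. Complex III gave 0.067 with every probe set, 0.064 with probe sets averaged per gene and 0.028 to 0.071 with 1 array left out. Complex V gave 0.036 with every probe set and -0.001 to 0.028 with 1 array left out. Members at an unadjusted p under 0.05 numbered 7 with an intensity trend and 1 to 3 with 1 array left out, with 1 without TG array 1 or TG array 2. Members without overlap numbered 22 to 30 with 1 array left out, where fewer arrays make overlap rarer by construction. For neither count are the shares of all genes under these alternatives given here, so the counts are not a result about the members. The cause of the other shifts was not tested. Leaving out Atp5s and Atp5sl gave no value, since neither was a member. No paired analysis was possible because replicate numbers follow deposit order and pair no animals. Without raw intensities, the limit set by background at low values, such as those of Cox7b2, is unknown.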
